A study of Mus musculus with 18 samples.

Results

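The myogenic regulatory factors are 4 related transcription factors that start and carry out the muscle programme: Myod1, Myf5, Myog (myogenin) and Myf6. They were read here in C2C12, an established line of mouse myoblasts whose cells stop dividing and fuse to myotubes once serum is lowered. Members were the probe sets whose only gene symbol in the platform annotation was one of these 4 names, and each gene had 1 probe set, so that the 4 genes were 4 of 22180 tested. The cells were grown in 20% fetal bovine serum and shifted to 2% horse serum to differentiate. Lentivirus encoding a short hairpin RNA (shRNA), which lowers its target mRNA by RNA interference, was added at 36 h of differentiation, and RNA was taken 48 h after infection. Each of 3 groups had 6 one-colour arrays. Control cells received a scrambled shRNA. The second group received an shRNA to Nup210, a nuclear pore membrane protein, and the third an shRNA to Mef2c, a MADS-box transcription factor that works with the myogenic factors. All 3 groups were infected cells of the same line on the same differentiation schedule. Whether the 6 samples of a group were grown separately is not said in the labels, so the p-values reflect only how much these samples varied, and that variation may be technical.

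All 4 factors are basic helix-loop-helix proteins that pair with an E protein and bind the E-box, CANNTG, in the control regions of muscle genes. Myod1 and Myf5 commit precursor cells to the muscle lineage and are already made in dividing myoblasts. Myog comes on when cells leave the cycle and is needed for terminal differentiation, and Myf6 is best known as the late factor of maturing muscle fibres, although it also acts early in the embryo. Myf5 and Myf6 are next-door neighbours on chromosome 10 in the RefSeq gene table, while Myod1 lies on chromosome 7 and Myog on chromosome 1.

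RefSeq promoter windows (GRCm38.p6, 250 bases before to 50 after the start of the gene) were found for Myog and Myf5 by gene identifier, and the entries are shown because the windows differ in the letters that myogenic factors and MEF2 proteins read. Capitals mark matches on either strand to the E-box CANNTG or to CTANNNNTA, the core of a MEF2 site with its 4 middle letters left free. The Myog window is chr1:134289754-134290053 on the plus strand and the Myf5 window chr10:107486085-107486384 on the minus strand, each written 5′ to 3′ along its gene.
Myog: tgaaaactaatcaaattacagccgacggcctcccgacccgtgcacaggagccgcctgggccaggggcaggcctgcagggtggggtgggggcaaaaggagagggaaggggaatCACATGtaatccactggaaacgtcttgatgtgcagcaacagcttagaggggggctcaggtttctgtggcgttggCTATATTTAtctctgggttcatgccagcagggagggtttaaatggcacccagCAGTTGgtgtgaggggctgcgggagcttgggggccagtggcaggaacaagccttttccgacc
Myf5: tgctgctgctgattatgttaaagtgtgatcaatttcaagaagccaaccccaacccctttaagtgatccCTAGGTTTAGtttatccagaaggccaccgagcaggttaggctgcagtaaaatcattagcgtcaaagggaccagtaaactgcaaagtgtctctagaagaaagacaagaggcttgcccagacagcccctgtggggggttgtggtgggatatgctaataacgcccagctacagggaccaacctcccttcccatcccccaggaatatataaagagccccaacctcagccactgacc
The Myog window held 2 E-boxes, CACATG at -138 and CAGTTG at -12 from the start site, and 1 MEF2 core, CTATATTTA at -64. The Myf5 window held 0 E-boxes and 2 overlapping matches to the MEF2 core, CTAGGTTTA at -182 and TAGGTTTAG at -181, the latter on the opposite strand. Of 32851 promoter windows of this length, 72.3% held an E-box and 21.0% a MEF2 core. A match is a description of the letters and was not read as a binding site.

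The deposited values are log2 expression, with array medians of 5.48 to 5.57. A guide to background was the 95th percentile of 1390 olfactory and vomeronasal receptor genes, which stood at 5.47. Myod1, Myf5 and Myog lay well over it, with means over all arrays of 10.77, 8.25 and 12.15. Myf6 averaged 5.93, close to it. Levels of different probe sets are not compared here, because probes differ in brightness. All 10 myotube markers exceeded background in these arrays. So did 4 of 4 smooth muscle, 5 of 6 fibroblast, 3 of 4 neuron, 3 of 5 adipocyte, 2 of 3 chondrocyte, 2 of 3 osteoblast and 1 of 5 endothelial or blood markers that were measured. In the arrays labelled Mef2c shRNA, Mef2c stood at 17.9% of control. In those labelled Nup210 shRNA, Nup210 stood at 93.1% of control, a difference that did not pass (limma adjusted p = 0.402). Against the Mef2c shRNA arrays Nup210 stood at 85.0% (-0.23, adjusted p = 0.0178, called), with all 6 arrays below the Mef2c shRNA mean but the groups overlapping. The Mef2c shRNA arrays themselves had Nup210 at 109% of control (0.13, adjusted p = 0.232, not called). That contrast therefore does not measure a fall of Nup210 from control. Its probe set is near background, and the group is named by its label throughout. Nup210 shRNA arrays 2, 4 and 5 had the lowest quality weights of the 18 (0.724, 0.621 and 0.744). For the factors and the named list genes, results that rest on them are given with and without them.

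The early factors Myf5 and Myod1 were higher in the Nup210 shRNA arrays than in every control array, Myf5 at 158% and Myod1 at 120.1% of control. Myog was nearly level with control there, and the rise of Myf6 did not pass. In the Mef2c shRNA arrays the picture was different: Myf5 was 1.26-fold higher, Myf6 fell to about the background level, Myod1 did not pass, and Myog, at 89.3% of control, narrowly missed the threshold. Calls rest on an adjusted p (Benjamini-Hochberg over all 22180 genes) below 0.05 in limma, a linear model with moderated variances. Of the 4 factors, 2 were called against control in the Nup210 shRNA arrays, where 8.16% of all genes were called, and 2 in the Mef2c shRNA arrays, where 10.8% were. Both comparisons use the same 6 control arrays.

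**Figure D1:**
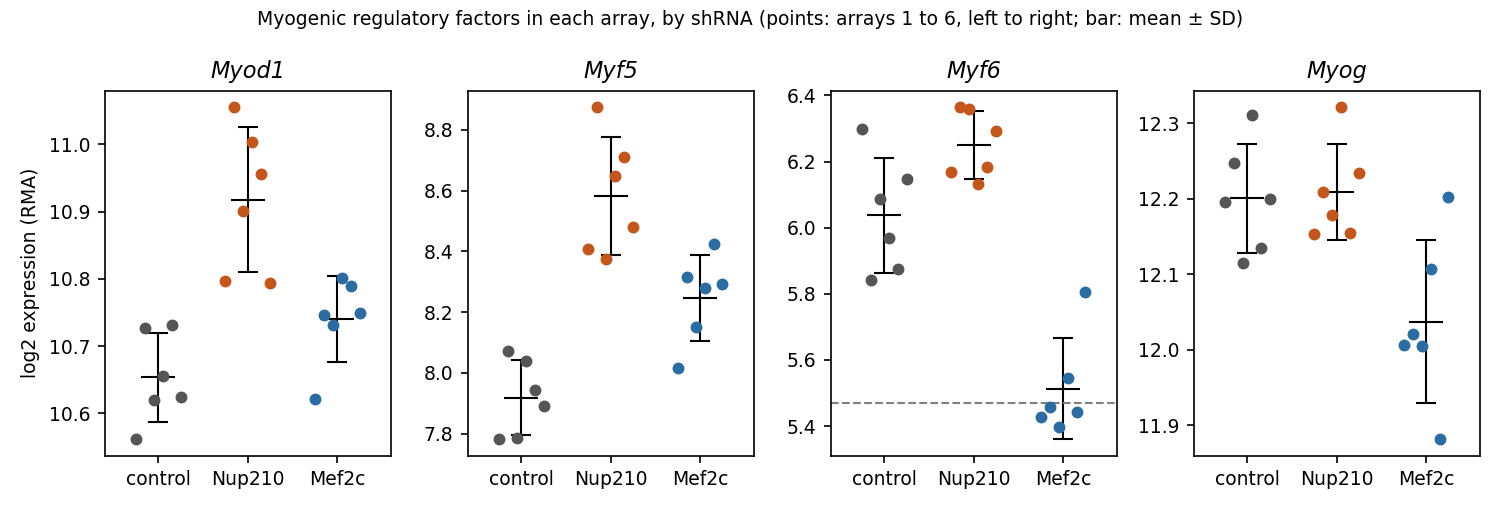
Log2 expression of Myod1, Myf5, Myf6 and Myog (vertical axes, each with its own range that does not start at 0) in the 6 arrays of each shRNA group; points are arrays in order of replicate number, bars the mean ± SD, and the dashed line in the Myf6 panel the background guide of 5.47. The Nup210 shRNA points of Myod1 and Myf5 all lie above the control points, and the Mef2c shRNA points of Myf6 all lie below them.

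Myf5, which marks committed myoblasts, differed between all 3 groups. In controls its log2 values ran from 7.78 to 8.07 with a median of 7.92. In the Nup210 shRNA arrays they ran from 8.38 to 8.88 with a median of 8.56. In the Mef2c shRNA arrays they ran from 8.02 to 8.42 with a median of 8.29. The Nup210 shRNA arrays did not overlap the controls, a separation that 5.63% of all genes showed in this comparison, whereas the Mef2c shRNA arrays overlapped both other groups. The rise with Nup210 shRNA was 0.66 ± 0.087 (SE, 6 arrays a group; limma adjusted p = 9.48e-05), and 0.243% of all genes changed by more in either direction. The rise with Mef2c shRNA was 0.33 ± 0.087 (adjusted p = 0.0192), with all 6 arrays above the control mean. Without Mef2c shRNA array 5 that rise was 0.29 (adjusted p = 0.05004, narrowly not called). The direct comparison placed Myf5 0.34 ± 0.087 higher with Nup210 than with Mef2c shRNA (adjusted p = 0.0128), so its order was Nup210 shRNA, then Mef2c shRNA, then control, with each step called. Without Nup210 shRNA arrays 2, 4 and 5, a fit chosen after seeing the data, the rise over control was 0.50 (adjusted p = 0.00506) and the step to Mef2c shRNA was 0.17 and no longer called (adjusted p = 0.265).

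Myod1, the factor that can convert other cells to muscle, followed the same order with smaller steps. Its control values ran from 10.56 to 10.73 with a median of 10.64. The Nup210 shRNA values ran from 10.79 to 11.06 with a median of 10.93, all above the highest control. The Mef2c shRNA values ran from 10.62 to 10.80 with a median of 10.75, which overlapped both other groups. Myod1 rose with Nup210 shRNA by 0.26 ± 0.051 (SE; limma adjusted p = 0.00266). With Mef2c shRNA it differed by 0.09 (95% interval -0.02 to 0.19, adjusted p = 0.346), so control and Mef2c shRNA are not separated in its order. The direct comparison gave 0.18 ± 0.051 higher with Nup210 than with Mef2c shRNA (adjusted p = 0.0241). Dropping array 1 of the Mef2c shRNA group ended that call (0.15, adjusted p = 0.0617), as did dropping array 2 (0.15, adjusted p = 0.0600) or 4 (0.16, adjusted p = 0.0559) of the Nup210 shRNA group. Nup210 shRNA arrays 2, 4 and 5, the ones of lowest weight, were also the 3 highest arrays of all 18 for both Myod1 and Myf5. Without them the Myod1 rise over control was 0.18 (adjusted p = 0.105) and the step to Mef2c shRNA 0.09 (adjusted p = 0.373), neither called.

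Myog, which drives the exit into terminal differentiation, was nearly level between the Nup210 shRNA and control arrays. Its control values ran from 12.12 to 12.31 with a median of 12.20, and its Nup210 shRNA values from 12.15 to 12.32 with a median of 12.19. These groups overlapped almost wholly, and the difference was 0.01 with a 95% interval of -0.10 to 0.12 (limma adjusted p = 0.959); its sign turned with each array centred on its median (-0.012). In the Mef2c shRNA arrays Myog ran from 11.88 to 12.20 with a median of 12.01. Array 6 of that group reached the middle of the control range, and array 5 was the lowest of all 18. The difference from control was -0.16 ± 0.052 (95% interval -0.27 to -0.05, adjusted p = 0.0506), with 5 of 6 arrays below the control mean, and so fell just outside the threshold. It was called without Mef2c shRNA array 6 (-0.20, adjusted p = 0.0153), without Nup210 shRNA array 4 (-0.16, adjusted p = 0.0434), and without control array 3 (-0.18, adjusted p = 0.0438) or 5 (-0.18, adjusted p = 0.0482). Directly, Myog was 0.17 ± 0.052 higher with Nup210 than with Mef2c shRNA (adjusted p = 0.0324). Leaving out any of 7 single arrays removed that call, namely Nup210 shRNA array 2, 4 or 6 or Mef2c shRNA array 1, 2, 3 or 5, with adjusted p from 0.0526 to 0.0772.

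Myf6, the factor of maturing fibres, was the one that fell. Control values ran from 5.84 to 6.30 with a median of 6.03, and Nup210 shRNA values from 6.13 to 6.36 with a median of 6.24. Mef2c shRNA values ran from 5.40 to 5.81 with a median of 5.45. All Mef2c shRNA arrays lay below all controls (7.74% of all genes had groups that did not overlap in this comparison), and 4 of the 6 were below the background guide of 5.47. Myf6 fell by 0.52 ± 0.082 (SE; limma adjusted p = 0.000294) with Mef2c shRNA, and since the lower level is at background the size of the fall is a poor measure of the loss of mRNA. Its rise of 0.21 with Nup210 shRNA (95% interval 0.04 to 0.38) did not pass over all genes (adjusted p = 0.135), although all 6 arrays exceeded the control mean. Between the shRNA groups the difference was 0.74 ± 0.082 (adjusted p = 5.67e-06), a size limited in the same way by the background level of the Mef2c shRNA arrays. Myf6 therefore ordered as Nup210 shRNA and control, not separated, followed by Mef2c shRNA. Its neighbour Myf5 rose in the same Mef2c shRNA arrays in which Myf6 fell.

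**Figure D2:**
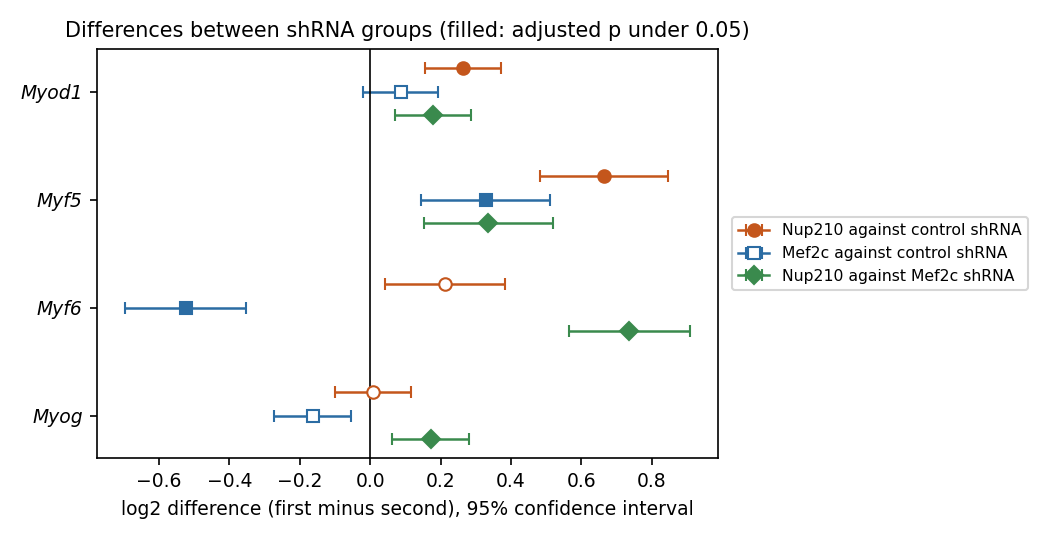
Log2 differences between groups (horizontal axis, first group minus second, with 95% confidence intervals from limma) for the 4 factors; filled symbols passed an adjusted p of 0.05 over all genes. All 4 differences of Nup210 against Mef2c shRNA lie to the right of 0, and the Mef2c shRNA differences from control run from -0.52 for Myf6 to 0.33 for Myf5.

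In the direct comparison all 4 factors were called higher in the Nup210 than in the Mef2c shRNA arrays, where 7.10% of all genes were called higher and 6.93% lower. The groups fully separated for Myf6, as for 8.62% of genes in this comparison, and overlapped for Myod1, Myf5 and Myog. Without Nup210 shRNA arrays 2, 4 and 5 the call of Myf6 held (0.76, adjusted p = 0.000276), and Myog was 0.15 higher (adjusted p = 0.179, not called). The share of a factor's variance over the 18 arrays that lay between groups was 84.3% for Myf6, 78.2% for Myf5, 68.4% for Myod1 and 51.8% for Myog, against a median of 18.1% over all genes. The SD within groups was 0.082 for Myod1 and 0.083 for Myog, below the median of 0.142 over all genes, and 0.157 for Myf5 and 0.146 for Myf6. The small steps of Myod1 and Myog were thus read against a small spread.

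Within a group, Myod1 and Myf5 tended to be high in the same arrays. Their Pearson r was 0.77 in controls (n = 6, exact permutation p = 0.0889, Spearman rho 0.83 with exact p = 0.0583), 0.84 in the Nup210 shRNA arrays (n = 6, exact permutation p = 0.0444, rho 0.71 with exact p = 0.136) and 0.87 in the Mef2c shRNA arrays (n = 6, exact permutation p = 0.0472, rho 0.60 with exact p = 0.242). Without the 2 arrays farthest from the median of Myod1, r was 0.80, 0.90 and 0.92. In controls Myod1 and Myf6 ran in opposite directions (r = -0.97, n = 6, exact permutation p = 0.0111, rho -0.89 with exact p = 0.0333; r = -0.97 without the 2 farthest arrays), whereas r was 0.11 and 0.24 in the Nup210 and Mef2c shRNA arrays (exact permutation p = 0.808 and 0.608). Myf6 and Myog correlated at 0.84 in the Mef2c shRNA arrays (n = 6, exact permutation p = 0.0361, rho 0.83 with exact p = 0.0583), a value that became -0.17 without arrays 4 and 6 and so rests on them. Of 18 such correlations (6 pairs of factors in 3 groups, two-sided exact permutation tests over 720 orders), none passed after Benjamini-Hochberg adjustment, the lowest adjusted p being 0.2 for Pearson's r and 0.263 for Spearman's rho. Values of 1 array share their RNA and their normalization, whose part in these relations was not tested.

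**Figure D3:**
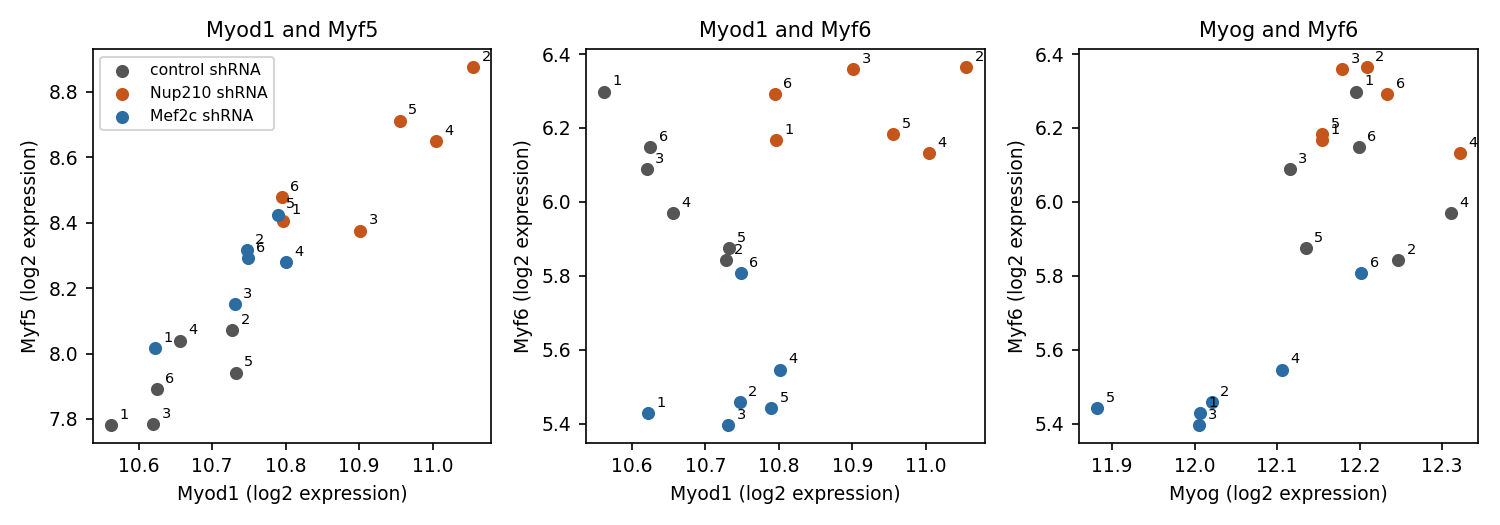
Log2 expression of one factor against another in each of the 18 arrays, labelled by replicate number and coloured by shRNA group (both axes log2 expression). Myod1 and Myf5 fall along 1 band with Nup210 shRNA arrays 2, 4 and 5 at its top; Myf6 separates the Mef2c shRNA arrays from the rest at like levels of Myod1.

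Among 12028 genes above background, the pattern most like that of Myod1 over the 18 arrays was that of Myf5 (Pearson r = 0.94), followed by Tnks2 (0.91), a tankyrase, and Cep170b (0.91), a centrosomal protein. Myf5 was most like Cep170b (0.95), the transcriptional coregulator Cited2 (0.95) and the p53 target Zmat3 (0.95). Myog was most like Fhl1 (0.93), a LIM-domain protein abundant in muscle, Pdlim1 (0.90), a PDZ and LIM protein of the actin cytoskeleton, and the sorting receptor Sorcs2 (0.90). Myf6 was most like Bivm (0.93), Nmd3 (0.93), a nuclear export adaptor of the large ribosomal subunit, and the histone methyltransferase Kmt5a (0.92). These values are descriptions over arrays that share groups, and no test was made. After the group means were subtracted the closest were Gapvd1 (0.90), Adamts1 (0.90) and Zfp319 (0.89) for Myod1, and Trmt112 (0.91), Sap130 (0.91) and Ddx39b (0.91) for Myf5. For Myf6 they were Adi1 (0.87), Srgap1 (0.84) and Tex26 (0.81). For Myog they were Ankrd2 (0.91), an ankyrin repeat protein of striated muscle, Fhl1 again (0.85) and Zfp704 (0.84).

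Of the 3 E proteins, the dimer partners of the 4 factors, Tcf3 fell with Nup210 shRNA and Tcf12 with Mef2c shRNA. Tcf3, which encodes E12 and E47, averaged 8.19 ± 0.046 (SD, n = 6) with Nup210 shRNA against 8.45 ± 0.056 in controls, a fall of 0.26 on the log2 scale (limma adjusted p = 0.00114). Tcf12, which encodes HEB, was 9.59 ± 0.063 in the Mef2c shRNA arrays and 9.97 ± 0.048 in controls, a fall of 0.38 (adjusted p = 5.09e-05). In both cases all 6 arrays lay below all controls. Of all genes, 5.63% had groups that did not overlap with Nup210 shRNA and 7.74% with Mef2c shRNA. The shares called lower were 5.11% and 6.42%. Tcf3 with Mef2c shRNA (0.03), Tcf12 with Nup210 shRNA (0.06) and Tcf4, the other E protein (0.00 and 0.04), did not pass. Between the shRNA groups Tcf3 was lower (-0.29, adjusted p = 0.000201) and Tcf12 higher (0.44, adjusted p = 6.41e-06) with Nup210 than with Mef2c shRNA.

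Inhibitors of the factors included Id3 and Snai2 among the rises with Nup210 shRNA and the Notch effectors Heyl and Hes1 among the falls with Mef2c shRNA. Of 23 measured inhibitors, 5 rose and 2 fell with Nup210 shRNA (median log2 difference 0.08, against 0.02 over all genes; 3.05% of all genes, 676, were called higher and 5.11%, 1133, lower, or 395 and 1177 with each array centred on its median, where 3 inhibitors rose and 2 fell). Id3, which ties up E proteins without binding DNA, rose by 0.60 ± 0.15 (SE; adjusted p = 0.0142), Snai2, a zinc-finger repressor, rose by 0.33 ± 0.066 (adjusted p = 0.00368), and the circadian repressor Bhlhe40 fell by 0.28 ± 0.082 (adjusted p = 0.0414). Bhlhe40 did not pass on leaving out Nup210 shRNA array 2, 4 or 5, Mef2c shRNA array 1, 2 or 4, or control array 1, 3, 4 or 6 (adjusted p from 0.0510 to 0.0984). Without Nup210 shRNA arrays 2, 4 and 5 a single inhibitor rose and 0 fell, and Id3 was at 0.33 (adjusted p = 0.313), Snai2 at 0.23 (adjusted p = 0.113) and Bhlhe40 at -0.15 (adjusted p = 0.457). Without control arrays 4 and 6, also chosen after seeing the data, 3 rose and 1 fell, Id3 was at 0.54 (adjusted p = 0.0862) and Bhlhe40 at -0.24 (adjusted p = 0.189). With Mef2c shRNA 6 of the 23 fell and 0 rose (median -0.06 against 0.02; 4.34% of all genes, 963, were called higher and 6.42%, 1423, lower). Heyl (-0.46 ± 0.057 SE, adjusted p = 3.05e-05) and Hes1 (-0.33 ± 0.052, adjusted p = 0.000315) were among them, and so was Bhlhe40 (-0.36 ± 0.082, adjusted p = 0.00674). Without control arrays 4 and 6 the count was 3 falls and Bhlhe40 stood at -0.32 (adjusted p = 0.0539). Id3 was 0.44 higher with Mef2c shRNA than in controls (adjusted p = 0.0617, not called), with all 6 arrays above the control mean. Between the shRNA groups Id3 differed by 0.16 (adjusted p = 0.592), so its rise is not particular to Nup210 shRNA.

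Of 25 measured transcription factors that act upstream of or with the myogenic factors, Mef2d alone passed with Nup210 shRNA, falling by 0.17 ± 0.044 (SE; limma adjusted p = 0.0163). It did not pass when Nup210 shRNA arrays 2, 4 and 5 were left out (adjusted p = 0.166), nor when control arrays 4 and 6 were (adjusted p = 0.0573). With Mef2c shRNA 2 rose and 3 fell, Mef2c itself and Mef2d included. Mef2d was there at -0.16 from control (adjusted p = 0.0195), much as with Nup210 shRNA. Between the shRNA groups it differed by -0.01 (adjusted p = 0.923). Eya1, a cofactor of sine oculis homeobox proteins, rose by 0.49 ± 0.10 (adjusted p = 0.00310), and Eya3, of the same family, by 0.23 ± 0.040 (adjusted p = 0.000926). Without control arrays 4 and 6 Mef2c was the single fall. Of 24 measured chromatin cofactors, 5 rose and 1 fell with Nup210 shRNA, and 3 rose and 5 fell with Mef2c shRNA. For these and the upstream factors, the shares over all genes were 3.05% higher and 5.11% lower with Nup210 shRNA, and 4.34% and 6.42% with Mef2c shRNA. Kat2a, a histone acetyltransferase, rose by 0.29 (adjusted p = 0.00133) with Nup210 shRNA, and Smarcd1, a BAF complex subunit, by 0.30 (adjusted p = 0.00114), although the dimmer probe set of Smarcd1 changed by 0.16 (adjusted p = 0.493). Setd7, a lysine methyltransferase that binds MyoD, fell by 0.60 (adjusted p = 2.07e-06) with Mef2c shRNA and the deacetylase Hdac1 by 0.23 (adjusted p = 0.00430). Ezh2, the Polycomb methyltransferase, was called in both comparisons, 0.20 higher with Nup210 shRNA (adjusted p = 0.00114) and 0.20 lower with Mef2c shRNA (adjusted p = 0.000631). Without Nup210 shRNA arrays 2, 4 and 5, 2 cofactors rose and 0 fell, and Kat2a lost its call (adjusted p = 0.0554). Without control arrays 4 and 6 the counts with Mef2c shRNA were 1 rise and 4 falls.

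Among known direct targets of the myogenic factors, the muscle creatine kinase Ckm led the falls in the Nup210 shRNA arrays, where Myf5 and Myod1 were higher. Of 43 targets, all measured above background, 13 fell and 1 rose with Nup210 shRNA, with a median log2 difference of -0.09 against 0.02 over all genes, of which 5.11% were called lower and 3.05% higher. Of all genes only 58.7% exceeded background, so these shares are over a set with more dim genes than the targets. Ckm stood at 9.63 with Nup210 shRNA against 10.02 in controls (-0.39 ± 0.055 SE, limma adjusted p = 0.000167), and its probe set near background changed by -0.28 (adjusted p = 0.0652). Dok7, an adaptor of the neuromuscular junction, fell by 0.33 ± 0.086 (adjusted p = 0.0211). Dropping control array 1 or 3 ended its call (adjusted p = 0.0511 and 0.0531), as did dropping array 5 of the Nup210 shRNA group (0.0525). The rise was that of Igfbp5, an insulin-like growth factor binding protein (0.29 ± 0.037, adjusted p = 6.62e-05). Without Nup210 shRNA arrays 2, 4 and 5, 4 targets fell and 1 rose, and without control arrays 4 and 6, 8 fell and 1 rose, with Dok7 not called in either (adjusted p = 0.323 and 0.0925). With Mef2c shRNA 5 targets fell, Mef2c included, and 4 rose (2 without control arrays 4 and 6, and 2 with each array centred on its median), against 6.42% of all genes called lower and 4.34% higher. Cdkn1c, an inhibitor of cyclin-dependent kinases, fell by 0.64 ± 0.057 (adjusted p = 1.01e-06) and Myh3, the embryonic myosin heavy chain, by 0.39 ± 0.037 (adjusted p = 1.92e-06). Dropping Nup210 shRNA arrays 2, 4 and 5, which enter this fit only through the spread, gave 8 falls.

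**Figure D4:**
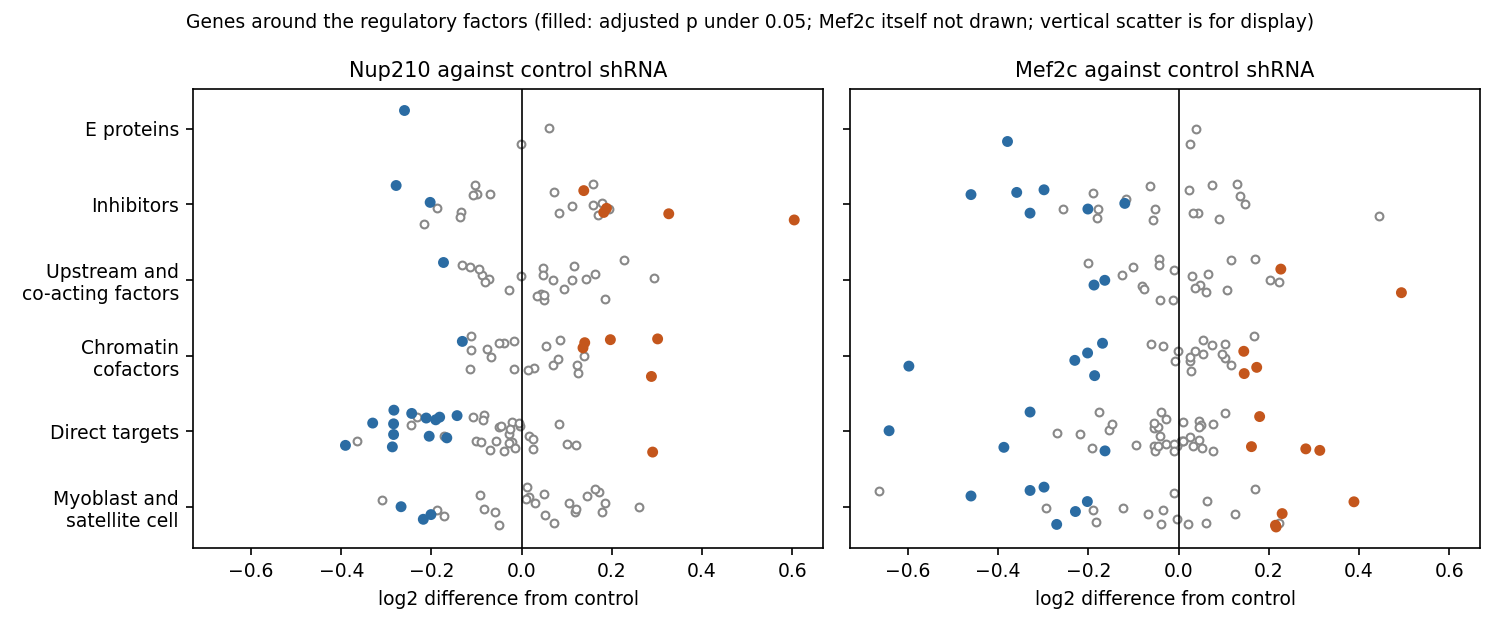
Log2 difference from control (horizontal axis) of each measured gene of the 6 lists, for Nup210 shRNA on the left and Mef2c shRNA on the right; filled points passed an adjusted p of 0.05, orange higher and blue lower, and Mef2c is not drawn. Filled points among the inhibitors lie on both sides on the left and on the low side on the right, and 13 of the 14 filled direct targets on the left are lower.

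Myoblast and satellite cell genes are made, as Myf5 is, before cells differentiate, although the list shares Des, Cdh15 and Fgfr4 with the direct targets above. Of its 26 measured genes, 0 rose and 3 fell with Nup210 shRNA, where 3.05% of all genes were called higher and 5.11% lower. The falls were the heparan sulfate proteoglycan Sdc4 (-0.27 ± 0.035 SE, limma adjusted p = 9.90e-05), the growth factor receptor Igf1r (-0.22 ± 0.055, adjusted p = 0.0181) and Megf10 (-0.20 ± 0.053, adjusted p = 0.0244), a receptor of satellite cells. Dropping control array 3 (adjusted p = 0.0588) or array 2 or 4 of the Nup210 shRNA group (0.0595 and 0.0578) ended the call of Megf10, and Sdc4 was the single fall without Nup210 shRNA arrays 2, 4 and 5, where Igf1r (adjusted p = 0.0530) and Megf10 (0.379) lost their calls. Pax7, the satellite cell factor, differed by 0.16 (adjusted p = 0.466). With Mef2c shRNA 4 rose and 6 fell (4.34% and 6.42% of all genes), among them the adhesion molecule Vcam1 (0.39 ± 0.093, adjusted p = 0.00984), Heyl, already given, and the cadherin Cdh15 (-0.33 ± 0.044, adjusted p = 6.23e-05). Megf10 was also among these falls (-0.23, adjusted p = 0.0082), and between the shRNA groups it differed by 0.03 (adjusted p = 0.832). Without control arrays 4 and 6 a single gene of the list rose, and Vcam1 was at 0.26 (adjusted p = 0.0817). Pax7 was chosen for naming after its value was seen.

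The mean log2 level of the 10 myotube markers was lower in both shRNA groups than in every control array, at 10.90 to 11.11 with Nup210 shRNA and 10.96 to 11.10 with Mef2c shRNA against 11.12 to 11.24. Of single genes, 5.63% and 7.74% separated fully from control in these comparisons, in either direction. A mean over several markers can vary less than a single gene. These shares are therefore not a like measure for any of the marker means given here. Nup210 shRNA arrays 2, 4 and 5 were the lowest of their group (10.96, 11.00 and 10.90). Its other arrays (11.06, 11.02 and 11.11) also lay below every control. Of these markers 4 fell with Nup210 shRNA and 3 with Mef2c shRNA, and 0 rose in either. The 4 were Ckm, Atp2a1, Myh3 and Mymk, which are also among the direct-target falls above. Of all genes, 5.11% were called lower and 3.05% higher with Nup210 shRNA, and 6.42% and 4.34% with Mef2c shRNA. With Mef2c shRNA Actn2 (-0.67), Myh3 (-0.39) and Acta1 (-0.16) fell, while Atp2a1, Myh8, Ttn and Mymk differed by 0.08, 0.03, 0.02 and 0.01. The median over the 10 markers was -0.19 with Nup210 shRNA and -0.05 with Mef2c shRNA. The 6 measured fibroblast markers averaged 8.17 to 8.33 with Nup210 shRNA, 7.96 to 8.21 with Mef2c shRNA and 7.93 to 8.14 in controls. Every Nup210 shRNA array thus lay above every control, where 5.63% of single genes separated in either direction. The differences of the 6 markers from control with Nup210 shRNA ran from 0.12 to 0.38. Of them 2 rose with Nup210 shRNA and 1 rose and 1 fell with Mef2c shRNA, and 5 of the 6 exceeded background. Without arrays 2, 4 and 5 the Nup210 shRNA averages were 8.28, 8.17 and 8.23. Markers of undifferentiated or cycling myoblasts averaged 8.01 to 8.32 with Nup210 shRNA, 7.65 to 8.04 with Mef2c shRNA and 7.99 to 8.19 in controls, with 1 rise of 8 in the first (Id3) and 2 falls in the second. The falls were those of Top2a (-0.83, limma adjusted p = 1.06e-06) and Cdk1 (-0.57, adjusted p = 0.000738), genes of cycling cells. Id3 and Pax7 were higher with Mef2c shRNA, by 0.44 and 0.06, and neither was called. With arrays 2, 4 and 5 left out, the Nup210 shRNA averages were 8.08, 8.15 and 8.06, and the Id3 call was lost, as given above. The 4 smooth muscle markers averaged 8.57 to 8.99 with Nup210 shRNA, 8.60 to 8.82 with Mef2c shRNA and 8.94 to 9.23 in controls. The Mef2c shRNA arrays thus did not overlap the controls, a separation that 7.74% of single genes showed in this comparison. The actin-binding proteins Tagln and Cnn1 fell with Nup210 shRNA (-0.51 and -0.55, limma adjusted p = 0.0343 and 0.0177) and with Mef2c shRNA (-0.80 and -0.61, adjusted p = 0.000926 and 0.00631), while Acta2 and Myh11 did not pass in either. Of the 4 neuron markers the tubulin Tubb3 alone passed, falling by 0.62 with Nup210 shRNA (adjusted p = 0.0244) and by 0.55 with Mef2c shRNA (adjusted p = 0.0386), and 1 of 5 adipocyte markers rose with Mef2c shRNA. The Nup210 shRNA calls of Tagln, Cnn1 and Tubb3 were not checked without arrays 2, 4 and 5. The part of these markers in the differences of Myf5, Myod1 and Myf6 was not tested. In bulk RNA, fewer cells of a type and less RNA per cell cannot be told apart.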

How the data were processed

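Total RNA of 18 samples was purified with Trizol and a column, labelled with biotin and hybridised to one-colour arrays, per the labels' protocols. The authors deposited 1 log2 value per probe set and array, and the submitters' processing notes name RMA and Partek. The settings, the build and any scan batch were not given in the sources. RMA removes background, equalizes the distributions of the arrays and combines probes, which compresses differences of dim genes such as Myf6. Groups were taken from the sample titles.

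Of 41345 probe sets, 23521 had 1 symbol in the platform annotation, 1814 several and 16010 none; only the first were used. The brightest probe set of each of 22180 genes was fitted over all 18 arrays in limma 3.58.1 (R 4.3.3), 1 mean per group, no covariate, default empirical Bayes, with Benjamini-Hochberg adjustment over all genes. The fit was tested on simulated data. Correlations used exact permutations (SciPy 1.17.1). The 6 arrays a group limit the precision, with a median SE of 0.080.

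The members and lists were chosen with earlier results of these data known. The text names all members, the targeted genes, up to 3 called genes of largest change per list and comparison with control, and the 3 genes most like each member. Pax7, Id1, Trim63, Klhl31, Chrng, Chrnd and single cell type markers were named besides, with their values known. Tagln, Cnn1, Acta2, Myh11, Tubb3, Top2a and Cdk1 were not followed through the alternatives. Nor were Id3, Mef2d and Megf10 with Mef2c shRNA, whose values were known when they were named there. Alternatives were a replicate block, only the groups compared, renewed quantile normalization, median centring, dim genes left out, other probe set rules, a trended robust prior, array weights, a threshold of 0.01, no moderation and leaving out each array. Fits without Nup210 shRNA arrays 2, 4 and 5 or without control arrays 4 and 6 were added after seeing the data. The quality weights of control arrays 4 and 6 (0.940 and 1.04) did not single them out. Fewer arrays alone lower the power to call, so calls lost in these fits are not traced to faulty arrays.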

Additional observations from a re-analysis of the deposited data

Results flagged for a closer look

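In 8 of 93 groups of 6 values (4 factors, both targeted genes and the named list genes in 3 groups), 1 array stood farther from its group than Dixon's 95% critical value allows; chance flags about 1 group in 20. Myf6 was highest in Mef2c shRNA array 6, at 5.81 against 5.40 to 5.55 in the other 5. Mef2c was lowest in Mef2c shRNA array 5, at 7.51 against 7.88 to 8.08. Nup210 was lowest in control array 6, at 5.57 against 5.75 to 5.81. Of the list genes, Dok7 was at 7.67 in Mef2c shRNA array 5 (others 7.96 to 8.12) and Myh3 at 11.64 in Mef2c shRNA array 4 (others 11.67 to 11.69). Eya3 was at 9.69 in Mef2c shRNA array 2 (others 9.52 to 9.57) and at 9.30 in Nup210 shRNA array 4 (others 9.39 to 9.44). Snai2 was at 10.74 in control array 5 (others 10.55 to 10.62). Without Mef2c shRNA array 6 the fall of Myf6 with Mef2c shRNA was -0.58.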

How the results depend on the processing

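Over 31 alternatives, 334 of 372 values of the 4 factors in 3 comparisons kept their direction and side of the threshold; 23 lost the call, 10 gained it and 5 changed sign, the last all for Myog with Nup210 against control shRNA. Causes were not tested. Calls that held in every alternative run were those of Myf5 with Nup210 shRNA and of Myf6 with Mef2c shRNA and between the shRNA groups. Myod1 with Nup210 shRNA was lost without Nup210 shRNA arrays 2, 4 and 5 (0.18). Myog with Nup210 shRNA was -0.012 with median centring and without those arrays. Myog with Mef2c shRNA was called with the replicate number as a block (-0.16, adjusted p = 0.0139), median centring (-0.18, 0.0376), dim genes left out (-0.16, 0.0213), a trended robust prior (-0.16, 0.0111), array weights (-0.16, 0.0336) and no moderation (-0.16, 0.0376). Samples share only a replicate number: in each comparison 2 of 6 same-numbered pairs correlated over 0.1. The block changed no other call of the factors, but with Nup210 shRNA 3 upstream factors and 4 myoblast genes rose under it (0 and 0 without), and 8 direct targets fell with Mef2c shRNA (5). Between the shRNA groups, Myod1 was lost with only the groups compared (0.18, 0.0595), array weights (0.15, 0.0594) and without Nup210 shRNA arrays 2, 4 and 5 (0.091); Myog with only the groups compared (0.17, 0.0701), renewed quantile normalization (0.15, 0.0794) and without those arrays (0.15); and Myf5 without those arrays (0.17). At a threshold of 0.01, Myf5 with Mef2c shRNA (0.33) and Myod1 (0.18), Myf5 (0.34) and Myog (0.17) between the shRNA groups were not called. Leaving out each array in turn, the differences with Nup210 shRNA ran from 0.24 to 0.29 for Myod1, 0.61 to 0.71 for Myf5, 0.17 to 0.26 for Myf6 and -0.015 to 0.030 for Myog. With Mef2c shRNA they ran from 0.07 to 0.11, 0.29 to 0.37, -0.58 to -0.47 and -0.20 to -0.13, and between the shRNA groups from 0.15 to 0.20, 0.28 to 0.38, 0.71 to 0.79 and 0.14 to 0.20. Without Nup210 shRNA arrays 2, 4 and 5, 153 genes in all rose and 410 fell with Nup210 shRNA (676 and 1133 with all arrays), and 995 were lower than with Mef2c shRNA (1538). Without control arrays 4 and 6 the counts were 379 and 724, and 537 and 883 with Mef2c shRNA (963 and 1423). Median centring gave 625 rises with Mef2c shRNA. At 0.01 the counts were 269 and 635, 423 and 879, and 971 and 928 between the groups (1575 and 1538). Signal over background limits Myf6.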

Other observations

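Set directly against each other, the shRNA groups differed in the inhibitors of the factors more in one direction: 7 of 23 were higher and 1 lower with Nup210 than with Mef2c shRNA, with a median log2 difference of 0.13 (7.10% of all genes were called higher and 6.93% lower). Of these Id1, which sequesters E proteins, was 0.27 ± 0.058 (SE) higher (limma adjusted p = 0.00342), a gene chosen after its value was seen and not called without Nup210 shRNA arrays 2, 4 and 5 (0.18, adjusted p = 0.0823). Direct targets of the factors had 6 higher and 12 lower among 43, with a median of -0.04. Chromatin cofactors had 7 higher and 3 lower among 24, upstream and co-acting factors 3 higher and 1 lower among 25, and myoblast and satellite cell genes 5 higher and 2 lower among 26. Mef2c, the gene targeted in the second group, is counted among the higher direct targets and the higher upstream factors.

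The direct targets Trim63 and Klhl31 moved in opposite directions from control in the shRNA groups. Trim63, a muscle ubiquitin ligase regulated by myogenin, was 0.29 lower with Nup210 shRNA (adjusted p = 0.00111) and 0.28 higher with Mef2c shRNA (adjusted p = 0.000845). Klhl31, a Kelch protein of muscle, was 0.28 lower (adjusted p = 0.00109) and 0.18 higher (adjusted p = 0.0221). The acetylcholine receptor subunits Chrng and Chrnd rose with Mef2c shRNA by 0.31 (adjusted p = 0.000191) and 0.16 (adjusted p = 0.0257). The Trim63 fall was not called without Nup210 shRNA arrays 2, 4 and 5 (adjusted p = 0.0540). The Klhl31 and Chrnd rises were not called without control arrays 4 and 6 (adjusted p = 0.0645 and 0.0932), with each array centred on its median (0.0612 and 0.0837) or without any of several single arrays: Mef2c shRNA array 2 or 4 or control array 4 or 5 for Klhl31 (0.0501 to 0.0574), and Mef2c shRNA array 2 or 3 or control array 2, 4 or 5 for Chrnd (0.0523 to 0.0637). All 4 were picked with their values known, and both comparisons use the same control arrays.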
